A study of Nothobranchius furzeri with 42 samples.

Results

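A group of 138 genes, of the 25475 in the table, was shared by spleen and kidney of the African turquoise killifish (Nothobranchius furzeri) and had low levels in heart, liver and muscle. The members were chosen from the measured levels themselves. For each gene and tissue, the mean of the alendronate libraries and the mean of the placebo libraries were averaged, giving both arms equal weight. This average is called the tissue level here. A gene was a member when the lower of its spleen and kidney levels was at least 5 CPM and at least 5 times its highest level in heart, liver or muscle. CPM, the usual unit of RNA-seq levels, are read counts scaled to the size of the library, here with the library total first multiplied by a trimmed-mean (TMM) factor computed over all 42 libraries together. The difference between tissues is therefore a description and was not tested.

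In fish, which have no blood-forming bone marrow, the kidney holds the main blood-forming tissue between its filtering tubules. The spleen filters and stores blood and holds immune cells. Both organs therefore contain blood or immune cells in large numbers, and blood also reaches heart, liver and muscle. The files pair no gene ID with a name, and 0 of the 25475 IDs matched the available gene table, so the members have no names here. No role is given to any member, and markers of blood, immune, tubule, liver or muscle cells could not be used to check the labelled tissues. Members are called by number, from 1 to 138, in falling order of the lower of their spleen and kidney levels.

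All fish were females of the short-lived GRZ strain kept at 28 °C. The alendronate fish had 10 µM alendronate in the tank water from 16 weeks of age for 3 weeks, and the placebo fish had the same amount of distilled water. Alendronate is a bisphosphonate, a drug class that binds bone mineral and acts mainly on bone-resorbing cells. Sampling was at 19 weeks of age, and the muscle came from the caudal fin. There were 5 alendronate libraries of each tissue. The placebo arm had 3 libraries of spleen, 2 of kidney and 4 each of heart, liver and muscle. The prefix of each library title was read as 1 fish, which gave 5 alendronate and 4 placebo fish. No source used here gives the number of tanks, and treatment and tank cannot be told apart.

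Total counts per library ran from 20485992 to 35717250. TMM factors spanned 0.364 (liver) to 1.91 (kidney), so that an equal share of counts gave a higher CPM in liver than in spleen or kidney. With no such factors the same limits gave 456 genes, which included all 138 members. Some libraries stood apart in the share of counts taken by genes of another tissue. The 482 genes enriched in liver by 10-fold or more took 9.77% and 6.37% of the counts in the spleen libraries of alendronate fish 1 and 3, against 0.474% to 2.25% in the other spleen libraries. Results in spleen are therefore given with and without these 2 libraries.

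**Figure D1:**
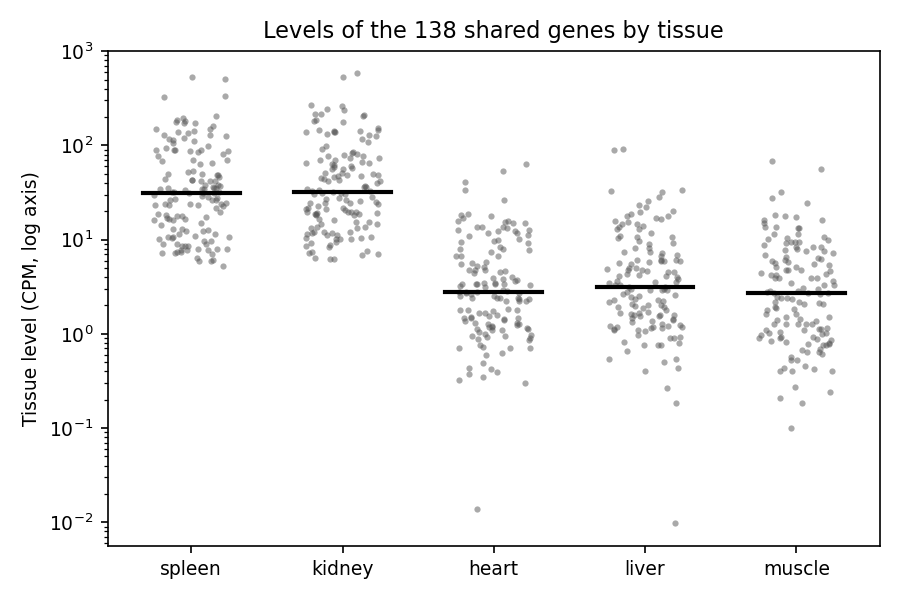
Tissue level of each of the 138 members (points, CPM on a log axis) in the 5 tissues, with the median over members as a bar. The medians were 31.3 CPM in spleen and 32.3 CPM in kidney, and between 2.71 and 3.14 CPM in heart, liver and muscle, a difference that the choice of members set.

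Members ranged widely in level, and most had a detectable level outside spleen and kidney. The median tissue level was 31.3 CPM in spleen, with a range of 5.22 to 535 CPM, and 32.3 CPM in kidney, with a range of 6.27 to 583 CPM. In heart the median was 2.76 CPM, in liver 3.14 CPM and in muscle 2.71 CPM. The plot of tissue levels shows that the highest members reached 63.6 CPM in heart, 91.8 CPM in liver and 67.5 CPM in muscle. By the lower of their spleen and kidney levels, 20 members had at least 100 CPM and 25 had less than 10 CPM. The highest of the 3 low tissues was liver for 72 members, heart for 47 and muscle for 19.

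Few members were far above the limit on the fold. The median fold over the highest of heart, liver and muscle was 6.58, and the range was 5.01 to 19.0. A 10-fold limit left 9 members, and a 20-fold limit left 0. The 2 members just inside the fold limit were member 101, with 12.3 CPM against 2.46 CPM (5.01-fold), and member 76, with 23.3 CPM against 4.64 CPM (5.02-fold). The 2 genes just outside had 12.6 CPM against 2.52 CPM (4.9999-fold) and 88.2 CPM against 17.7 CPM (4.99-fold). At the limit on the level, member 138 had 5.22 CPM and the next gene outside had 4.996 CPM.

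In single libraries the separation was less complete than in the averages. For 79 of the 138 members every spleen and kidney library was above every heart, liver and muscle library. For the others at least 1 library of heart, liver or muscle reached into the range of spleen and kidney. A count of 0 occurred in at least 1 heart, liver or muscle library for 25 members. No member had a count of 0 in a spleen or kidney library, where the lowest count was 31.

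Member 1 had the highest lower level, with tissue levels of 535 CPM in spleen, 583 CPM in kidney, 63.6 CPM in heart, 89.2 CPM in liver and 67.5 CPM in muscle. In spleen it had 772, 314, 522, 399 and 426 CPM in alendronate fish 1 to 5, against 362, 553 and 835 CPM in placebo fish 2 to 4. In kidney it had 797, 608, 551, 453 and 384 CPM in alendronate fish 1 to 5, against 601 and 614 CPM in placebo fish 2 and 3. Its arms overlapped in both tissues. Its highest heart value, 144 CPM in placebo fish 4, and its highest liver value, 235 CPM in alendronate fish 1, were both below its lowest spleen value.

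The next 4 members by level had a similar profile. Member 2 had 502 CPM in spleen and 537 CPM in kidney, and its highest other level was 91.8 CPM in liver. Member 3 had 324 CPM in spleen and 269 CPM in kidney, and member 4 had 333 CPM in spleen and 263 CPM in kidney. For member 5 the levels were 184 CPM in spleen and 216 CPM in kidney. Members 3 and 4 were thus higher in spleen, and members 1, 2 and 5 higher in kidney, all by less than 2-fold.

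Summed over the 138 members, the tissue levels came to 8286 CPM in spleen and 8889 CPM in kidney. The same sum was 837 CPM in heart, 1001 CPM in liver and 770 CPM in muscle. As a share of raw counts, the members took 1.48%, 0.734%, 1.71%, 0.982% and 1.17% in the spleens of alendronate fish 1 to 5, against 1.06%, 1.48% and 2.37% in those of placebo fish 2 to 4. In kidney they took 2.68%, 1.40%, 1.47%, 1.31% and 0.866% in alendronate fish 1 to 5, against 1.64% and 1.58% in placebo fish 2 and 3. The arms overlapped in both organs. In kidney the alendronate values lay on both sides of the placebo values, and in spleen placebo fish 4 was above every alendronate fish. In bulk tissue, fewer cells of a type and less RNA per cell cannot be told apart.

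The members differed in how evenly spleen and kidney shared them. The tissue level was higher in spleen for 51 members and higher in kidney for 87. The median log2 ratio of spleen to kidney level was -0.14, with quartiles of -0.56 and 0.22 and a range of -1.88 to 3.55. Within 2-fold of each other lay 123 members, called balanced here. The 5 spleen-leaning members were 44, 93, 98, 103 and 128. The 10 kidney-leaning members were 42, 47, 56, 66, 76, 97, 101, 105, 108 and 124.

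Member 93 had the highest ratio, with 194 CPM in spleen and 16.5 CPM in kidney (11.7-fold). In spleen it had 59.8, 157, 103, 154 and 253 CPM in alendronate fish 1 to 5, against 273, 136 and 317 CPM in placebo fish 2 to 4. In kidney it had 3.40, 16.0, 17.0, 13.6 and 11.7 CPM in alendronate fish 1 to 5, against 23.6 and 17.7 CPM in placebo fish 2 and 3. Every spleen library of this member was above every kidney library. Member 103 followed, with 46.6 CPM in spleen and 12.0 CPM in kidney (3.88-fold), and then member 98, with 41.4 CPM in spleen and 13.6 CPM in kidney (3.04-fold).

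On the kidney side the ratios were smaller. Member 124 had 28.5 CPM in kidney and 7.73 CPM in spleen (3.68-fold). Its kidney values were 23.2, 27.7, 24.3, 23.4 and 11.1 CPM in alendronate fish 1 to 5, against 41.0 and 29.0 CPM in placebo fish 2 and 3. Its spleen values were 4.18, 10.3, 5.61, 7.88 and 7.12 CPM in alendronate fish 1 to 5, against 10.1, 8.29 and 6.99 CPM in placebo fish 2 to 4. Every kidney library was above every spleen library for this member too. Member 56 had 116 CPM in kidney and 34.5 CPM in spleen (3.36-fold), and member 76 had 76.3 CPM in kidney and 23.3 CPM in spleen (3.28-fold).

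Which organ was higher also depended on the fish. Of the 7 fish with both libraries, alendronate fish 1 to 5 had 18, 16, 77, 36 and 101 of the 138 members higher in spleen, against 28 and 58 members in placebo fish 2 and 3. The median log2 ratio of spleen to kidney was -0.73, -0.99, 0.08, -0.42 and 0.63 in alendronate fish 1 to 5, against -0.61 and -0.16 in placebo fish 2 and 3. Only 7 members were higher in spleen in all 7 fish and 23 were higher in kidney in all 7, while 108 varied in direction between fish.

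**Figure D2:**
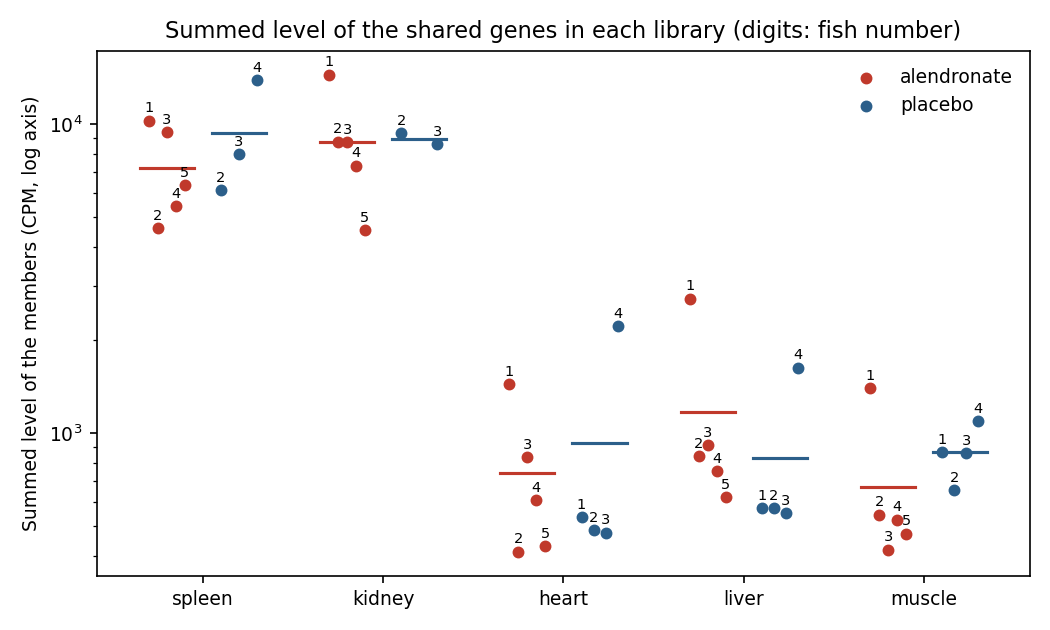
Summed level of the 138 members in each library (CPM on a log axis), by tissue, with alendronate left of placebo, the fish number beside each point and the arm mean as a line. Alendronate fish 1 was highest of its arm in every tissue, at 1438 CPM in heart, 2724 CPM in liver and 1396 CPM in muscle, and placebo fish 4 reached 2221 CPM in heart and 1628 CPM in liver.

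The summed level differed more between fish than between arms. Mean summed levels were 7222 ± 2496 CPM with alendronate and 9350 ± 4056 CPM with placebo in spleen (SD, n = 5 and 3). In kidney they were 8782 ± 3631 CPM with alendronate and 8996 ± 500 CPM with placebo (SD, n = 5 and 2). The heart means were 745 ± 423 CPM with alendronate and 929 ± 861 CPM with placebo, the liver means 1171 ± 875 CPM with alendronate and 830 ± 531 CPM with placebo, and the muscle means 671 ± 408 CPM with alendronate and 869 ± 180 CPM with placebo (SD, n = 5 and 4). In each tissue the arm means differed by less than the larger of the SDs.

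In heart and liver, alendronate fish 1 and placebo fish 4 were the highest of their arms, as the plot of summed levels shows, and in muscle alendronate fish 1 stood apart. The heart sums were 1438, 413, 837, 606 and 430 CPM in alendronate fish 1 to 5, against 534, 485, 476 and 2221 CPM in placebo fish 1 to 4. The liver sums were 2724, 844, 914, 752 and 621 CPM in alendronate fish 1 to 5, against 572, 570, 552 and 1628 CPM in placebo fish 1 to 4. In muscle the sums were 1396, 544, 419, 525 and 472 CPM in alendronate fish 1 to 5, against 869, 654, 861 and 1094 CPM in placebo fish 1 to 4. The highest library was 4.16-fold above the next of its arm in placebo heart, 2.98-fold in alendronate liver, 2.84-fold in placebo liver and 2.57-fold in alendronate muscle. It was 1.72-fold above the next in alendronate heart and 1.26-fold in placebo muscle.

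The same fish were high for most members taken one by one. Of the members that passed the filter on low counts in a tissue, alendronate fish 1 had the highest value of its arm for 96 of 132 in heart (72.7%, against 17.8% of all genes tested), 102 of 119 in liver (85.7% against 21.2%) and 104 of 123 in muscle (84.6% against 24.1%). In kidney it was highest for 92 of 138 (66.7% against 32.5%) and in spleen for 54 of 138 (39.1% against 30.5%). It was highest in heart, liver and muscle together for 78 of the 111 members tested in all 3 (70.3%), against 4.75% of 13482 genes. In all 5 tissues it was highest for 39 of 111 (35.1%), against 2.42% of 13432 genes.

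Placebo fish 4 had the highest value of its arm for 128 of 132 members in heart (97.0%, against 27.9% of all genes tested) and 111 of 119 in liver (93.3% against 32.6%). Its share was lower in muscle, at 63 of 123 (51.2% against 31.9%), and was 108 of 138 in spleen (78.3% against 37.3%), where the arm had 3 libraries. Heart and liver were high together for 104 of 115 members (90.4%), against 13.9% of 14006 genes. A kidney library of this fish was not analysed here. Libraries of 1 fish share their source and are not replicates of each other.

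**Figure D3:**
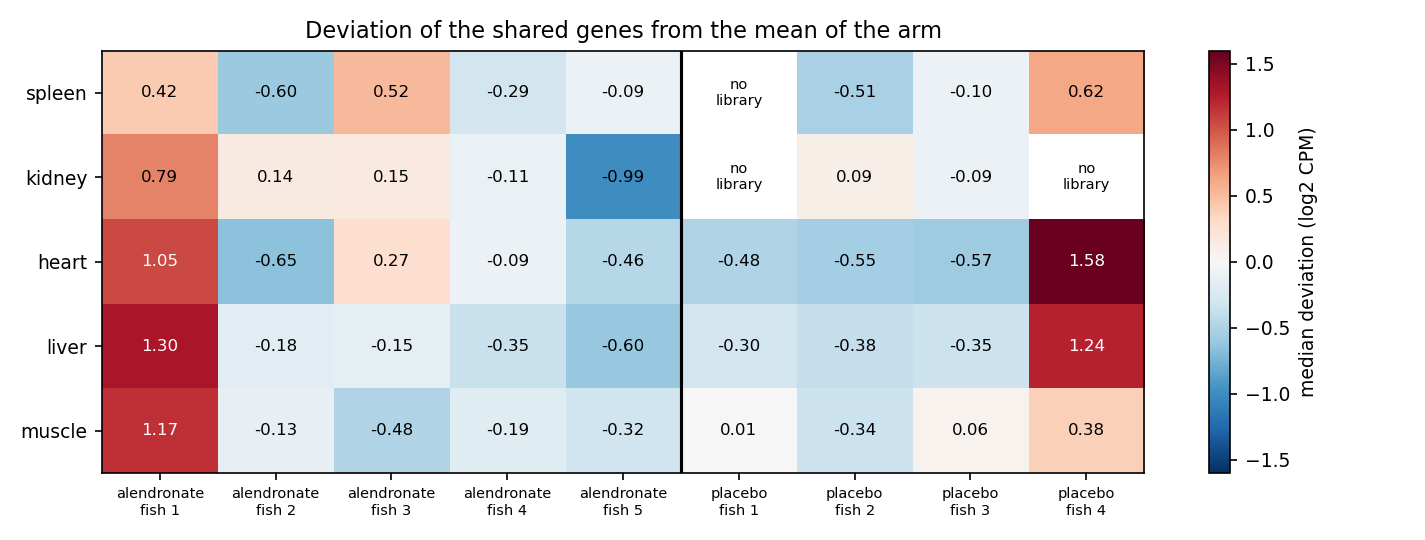
Median over the members of the deviation of a library from the mean of its arm and tissue (log2 CPM), with tissues as rows and the 5 alendronate fish left of the 4 placebo fish. Alendronate fish 1 lay above its arm in all 5 tissues, by 0.42 to 1.30, and placebo fish 4 lay 1.58 above its arm in heart and 1.24 above it in liver.

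The map of deviations gives the size of these differences. The median deviation of the members in alendronate fish 1 was 0.42 in spleen, 0.79 in kidney, 1.05 in heart, 1.30 in liver and 1.17 in muscle on the log2 scale. In placebo fish 4 it was 0.62 in spleen, 1.58 in heart, 1.24 in liver and 0.38 in muscle. Over all genes tested, the median deviation of a library lay between -0.05 and 0.04. Alendronate fish 5 was the opposite case in kidney, where it deviated by -0.99 and had the lowest value of its arm for 111 of 138 members (80.4%, against 19.9% of all genes tested).

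Shares of other tissues' genes moved with some of these libraries. The 44 genes enriched in spleen by 10-fold or more took 0.0312% of the heart counts in alendronate fish 1, against 0.0123% to 0.0168% in the other alendronate hearts. Member 93 is itself among these 44 genes. The placebo fish 4 heart had 0.0349%, and the remaining placebo hearts 0.0140% to 0.0159%. In liver they took 0.0134% in alendronate fish 1, against 0.00463% to 0.00609% in the other alendronate livers, while the placebo fish 4 liver had 0.00866% and the remaining placebo livers 0.00290% to 0.00363%. The muscle differences were smaller. There the 44 genes took 0.0126% in alendronate fish 1, against 0.00820% to 0.0100% in the other alendronate muscles. The placebo fish 4 muscle had 0.0130%, and the remaining placebo muscles 0.00881% to 0.0110%. In kidney, the 378 kidney-enriched genes took 2.22% of the counts in alendronate fish 1, where the members were highest, and 5.76% in alendronate fish 5, where they were lowest. The spleen-enriched genes took 0.111% in the kidney of alendronate fish 1, against 0.0379% to 0.0638% in the other kidneys. The 402 muscle-enriched genes took 2.02% and 1.28% in the kidneys of alendronate fish 2 and 3, against 0.170% to 0.709% in the other kidneys. The part of these shares in the level of the members was not tested.

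The series asks how alendronate affected gene expression in tissues outside bone. For this comparison, each tissue was tested with edgeR's quasi-likelihood test over all of its genes that passed the filter on low counts, and levels are CPM scaled within that tissue. No member passed an adjusted p of 0.05 in any tissue by edgeR or by limma-voom, and DESeq2 called 1 member, in spleen only. In spleen, kidney, heart and liver 0.00% of all genes tested passed, and in muscle 0.00641% did, which is 1 gene that is not a member. The smallest adjusted p of a member was 1.0 in spleen, 1.0 in kidney, 0.990 in heart, 0.914 in liver and 0.664 in muscle. An unadjusted p below 0.05 is used below as a mark for description, beside its share over all genes. Most members were not measured precisely enough to bound a change tightly. The 95% confidence interval lay within 2-fold in either direction for 22 members in spleen, 21 in kidney, 7 in heart, 6 in liver and 13 in muscle.

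**Figure D4:**
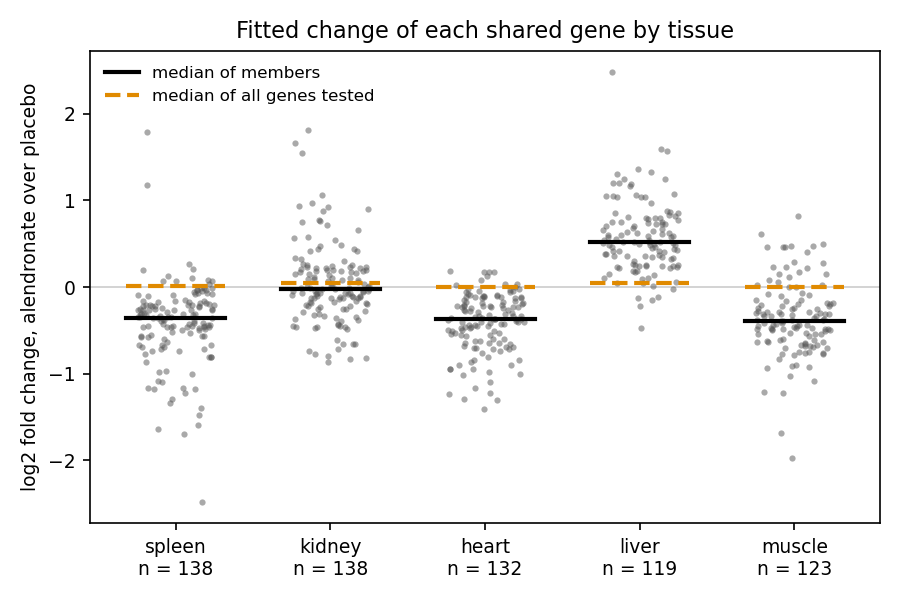
Fitted log2 fold change of alendronate over placebo for each member that passed the filter in a tissue (points, number below the axis), with the median over members as a black bar and the median over all genes tested as a dashed orange bar. The medians of the members were -0.35 for spleen, -0.37 for heart and -0.39 for muscle, -0.03 for kidney and 0.52 for liver, and no single point passed an adjusted p of 0.05.

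In spleen, all 138 members were tested, and the fitted change was below 0 for 126 of them, against 47.0% of all 17545 genes. The median log2 fold change was -0.35, against 0.02 over all genes. These counts are not independent of the choice of members, which used the same spleen libraries. Without the spleen of placebo fish 4 the rule kept 115 of the 138 members, and with alendronate libraries alone it kept 89. Where a gene reached the limit only through a high placebo library, that library also bears on the sign of its fitted change. At an unadjusted p below 0.05 there were 18 members, 13.0% of the list, against 1.62% of all genes. All 18 were lower with alendronate, against 1.23% of all genes, and 0 were higher, against 0.399% of all genes. For 10 members (7.25%) every alendronate spleen was below every placebo spleen, against 0.889% of all genes. For 0 members was the reverse true, against 0.467% of all genes.

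The spleen values rested on a few libraries and on the estimate of the spread. With all 42 libraries in the fit, 11 members (7.97%) had an unadjusted p below 0.05, all lower, against 4.05% of all genes. Without placebo fish 2 there were 28 (20.3%), all lower, against 2.52%. Without the spleen of placebo fish 4, 67 members were below 0 and the median was 0.01. In that fit 15 members (10.9%) had an unadjusted p below 0.05, of which 13 were lower, against 2.23% of all genes in either direction. All 18 members marked before stayed below 0 in that fit, and 12 of them kept an unadjusted p below 0.05. Without the spleens of alendronate fish 1 and 3, where liver-enriched genes took the largest shares, the median was -0.79 and 67 members (48.6%) had an unadjusted p below 0.05, all lower, against 6.58% of all genes. The 18 members were all among these 67, and 0 members passed the adjusted threshold in either fit. The 18 were picked in a fit that shares most of its libraries with both of these fits. That they stayed lower is therefore not separate evidence. In alendronate fish 1 and 3 together, 90 members (65.2%) were above the other 3 alendronate spleens, against 25.0% of all genes. For 17 members (12.3%) both were below the other 3, against 20.6%. Leaving both out thus lowers the alendronate mean of the 90 members and raises that of the 17.

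**Figure D5:**
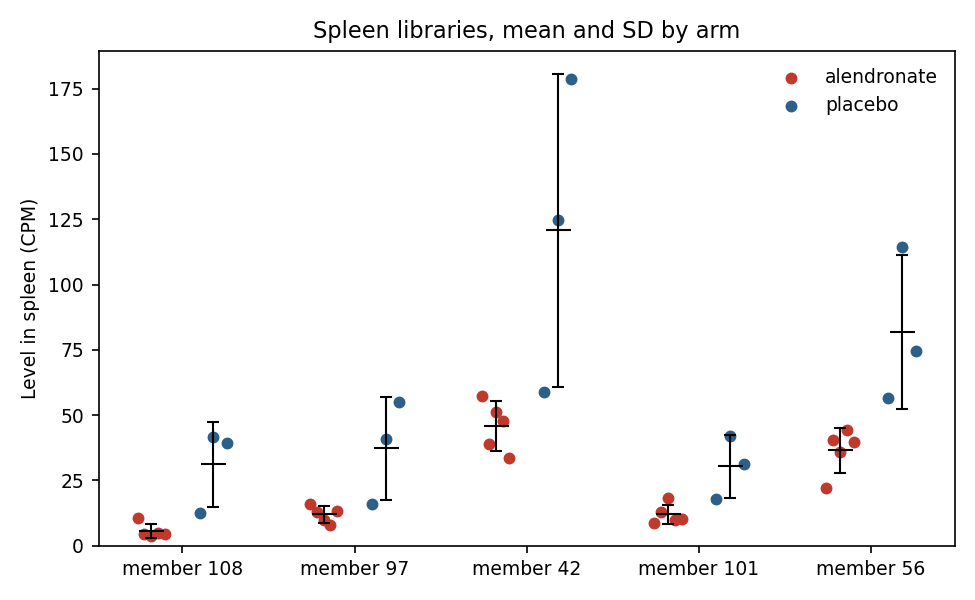
Level in each spleen library (CPM) of the 5 members with the smallest p in spleen, with alendronate libraries left of placebo libraries and the mean and SD of each arm (n = 5 and 3). For members 108, 42 and 56 every alendronate library lay below every placebo library, while for members 97 and 101 the placebo fish with the lowest level fell within the alendronate range.

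Member 108 (ENSNFUG00015012795) had the smallest p in spleen. It had 10.4, 4.45, 3.82, 4.85 and 4.61 CPM in alendronate fish 1 to 5, against 12.5, 41.7 and 39.5 CPM in placebo fish 2 to 4. All alendronate spleens were below all placebo spleens, with the highest alendronate fish close to the lowest placebo fish. The log2 fold change was -2.48 with an SE of 0.44 and a 95% confidence interval of -3.47 to -1.48. edgeR gave an unadjusted p of 0.000279 and an adjusted p of 1.0. DESeq2 called this member in spleen, with an adjusted p of 0.00278, as 1 of 9 genes it called. With the spread estimated over all 42 libraries edgeR's adjusted p was 0.0995, and the range over all alternatives tried was 0.00278 to 1.0.

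Member 97 (ENSNFUG00015024325) had 16.0, 13.0, 9.78, 7.84 and 13.2 CPM in alendronate spleens 1 to 5, against 15.9, 40.7 and 55.1 CPM in placebo spleens 2 to 4. Its arms overlapped by the highest alendronate fish. The log2 fold change was -1.64 with an SE of 0.37, and edgeR gave an unadjusted p of 0.00151.

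Member 42 had 57.4, 39.0, 51.3, 47.9 and 33.7 CPM in alendronate spleens 1 to 5, against 58.9, 125 and 179 CPM in placebo spleens 2 to 4. The arms did not overlap, and the log2 fold change was -1.40 with an SE of 0.33. Member 101 had 8.70, 12.7, 18.1, 9.99 and 10.4 CPM in alendronate spleens, against 17.8, 41.9 and 31.3 CPM in placebo spleens. Its arms overlapped, and the log2 fold change was -1.34 with an SE of 0.32. Member 56 had 21.9, 40.5, 35.9, 44.3 and 39.8 CPM in alendronate spleens, against 56.5, 114 and 74.7 CPM in placebo spleens. Its arms did not overlap, and the log2 fold change was -1.16 with an SE of 0.28. The 5 members shared placebo fish 2 as the lowest placebo spleen.

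Of the 12 members above 0 in spleen, 131 (ENSNFUG00015000541) and 136 (ENSNFUG00015016325) had the smallest p. Member 131 had 40.9, 3.24, 66.5, 4.38 and 5.54 CPM in alendronate spleens 1 to 5, against 2.90, 6.10 and 11.9 CPM in placebo spleens 2 to 4. Member 136 had 26.3, 1.48, 37.1, 4.26 and 2.77 CPM in alendronate spleens, against 1.88, 3.14 and 13.9 CPM in placebo spleens. Both were highest in alendronate fish 1 and 3, the spleen libraries with the largest shares of liver-enriched genes. Neither passed the filter on low counts in liver. In kidney both were highest in alendronate fish 1, at 68.9 CPM for member 131 and 111 CPM for member 136. Liver-enriched genes took 0.722% of the counts in that kidney. The cause of these high values was not tested. The log2 fold changes in spleen were 1.79 with an SE of 1.12 for member 131 and 1.18 with an SE of 1.15 for member 136. Without the spleens of alendronate fish 1 and 3 they were -0.67 for member 131 and -1.15 for member 136.

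The 18 members lower in spleen at an unadjusted p below 0.05 included 6 of the 10 kidney-leaning members, 12 of the 123 balanced members and 0 of the 5 spleen-leaning members. The leaning was set from the same spleen libraries, so these counts are not independent of the comparison. Their log2 fold changes in spleen ran from -2.48 to -0.53, with a median of -1.18. In kidney the same 18 members ran from -0.86 to -0.11, with a median of -0.47. In heart they ran from -1.31 to -0.24, with a median of -0.67. In liver 13 of them were tested, with values from 0.04 to 1.08, and in muscle 15 were tested, with values from -1.97 to -0.19. The 18 were picked by their spleen values, and libraries of the same fish enter the other tissues. These ranges are therefore not separate evidence, and no matching ranges were computed for all genes. Without placebo fish 4 the heart median of all members tested was 0.48. Member 50, among the 18, could pass the filter in muscle through the placebo libraries alone.

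In kidney, all 138 members were tested against only 2 placebo libraries. The fitted change was below 0 for 75 members, against 43.7% of all 19282 genes, and the median was -0.03, against 0.04 over all genes. At an unadjusted p below 0.05 there were 6 members (4.35%), against 1.70% of all genes. Of these, 4 were lower with alendronate, against 0.436% of all genes, and 2 were higher, against 1.27%. For 13 members (9.42%) every alendronate kidney was below both placebo kidneys, against 2.23% of all genes. For 1 member (0.725%) every alendronate kidney was above both, against 3.44%. The choice of members used the same kidney libraries, so these counts are not independent of it. The sign of the median depended on single libraries. It was -0.31 when alendronate fish 1 was left out and 0.14 when alendronate fish 5 was. With placebo fish 2 left out it was 0.08, and with placebo fish 3 left out it was -0.11. These last fits have 1 placebo library, which is assumed to vary like the alendronate libraries. Left out 1 at a time, the alendronate kidneys gave 5 to 9 members at an unadjusted p below 0.05 (3.62% to 6.52%). The shares of all genes in those fits were 0.974% to 5.17%. The highest of these shares was without alendronate fish 1, where 8 members (5.80%) were marked. The range of 5 to 9 does not cover the placebo kidneys, since leaving 1 of them out leaves a single placebo library. With all 42 libraries in the fit, 0 members had an unadjusted p below 0.05, against 2.03% of all genes.

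Member 56 had the smallest p in kidney. It had 128, 169, 135, 192 and 168 CPM in alendronate kidneys 1 to 5, against 250 and 248 CPM in placebo kidneys 2 and 3. The arms did not overlap, and the log2 fold change was -0.65 with an SE of 0.20. edgeR gave an unadjusted p of 0.0127 and an adjusted p of 1.0.

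Member 103 stood on the other side, with 29.6, 16.7, 34.7, 27.7 and 29.7 CPM in alendronate kidneys and 12.5 and 17.1 CPM in placebo kidneys. Its arms overlapped by 1 alendronate fish, and the log2 fold change was 0.90 with an SE of 0.30. Member 117 had 43.3, 21.1, 38.4, 19.9 and 34.2 CPM in alendronate kidneys, against 16.5 CPM in each of the placebo kidneys. Its arms did not overlap, and the log2 fold change was 0.93 with an SE of 0.35. It was the only member with every alendronate kidney above both placebo kidneys.

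Members 108 and 50 completed the 5 with the smallest p in kidney. Member 108 had 28.2, 37.4, 33.6, 41.8 and 16.6 CPM in alendronate kidneys, against 56.3 and 51.5 CPM in placebo kidneys. Member 50 had 57.2, 65.0, 80.4, 92.0 and 35.6 CPM in alendronate kidneys, against 124 and 105 CPM in placebo kidneys. Neither overlapped between arms, and alendronate fish 5 was lowest for both. The log2 fold changes were -0.77 with an SE of 0.32 for member 108 and -0.80 with an SE of 0.33 for member 50.

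An unadjusted p below 0.05 in both spleen and kidney was found for 4 members (2.90%), 50, 56, 88 and 108, against 18 (0.105%) of the 17170 genes tested in both. Of those 18 genes, 14 were lower in both organs. All 4 were lower with alendronate in both organs, and none overlapped between arms in either. Every alendronate library was below every placebo library for 0.889% of all genes in spleen and 2.23% in kidney. No such share was computed for both organs together. The 4 were picked by their p in both organs, so their separated arms are not further evidence. Member 88, which falls outside the rule for members described singly, averaged 15.4 ± 8.73 CPM in alendronate spleens and 46.5 ± 15.9 CPM in placebo spleens (SD, n = 5 and 3). In kidney it averaged 23.2 ± 7.98 CPM with alendronate and 42.2 ± 11.9 CPM with placebo (SD, n = 5 and 2). Its log2 fold changes were -1.60 in spleen and -0.86 in kidney. The spleen and kidney libraries came from the same fish, so the tissues are not independent. The choice of members used these same libraries, so the count of 4 is not independent of that choice. In kidney, the fit with all 42 libraries gave 0 members at an unadjusted p below 0.05, against 2.03% of all genes.

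In heart, 132 members passed the filter, so values there leave out 6 members. The fitted change was below 0 for 122 of the 132, against 50.2% of all 15975 genes, with a median of -0.37 against -0.0014 over all genes. At an unadjusted p below 0.05 there were 5 members (3.79%), against 2.62% of all genes. All 5 were lower, against 1.20% of all genes, and 0 were higher, against 1.43%. For 3 members (2.27%) every alendronate heart was below every placebo heart, against 0.520% of all genes, and for 0 members was every alendronate heart above, against 0.545%. The direction rested on placebo fish 4. Without its heart library, 20 of 133 members were below 0 and the median was 0.48. Without alendronate fish 1 the median was -0.74, and without both fish it was 0.15. The 5 members at an unadjusted p below 0.05 became 9 without alendronate fish 1 (6.92%, against 3.41% of all genes). Without placebo fish 3 there were also 9 (6.72% against 1.91%), and without alendronate fish 4 there were 8 (6.06% against 3.05%). Leaving out alendronate fish 5 gave 3 (2.29% against 5.15%). Without placebo fish 4 there were again 5 (3.76% against 3.17%), of which 0 were lower.

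Member 95 had the smallest p in heart, with 2.76, 3.14, 3.15, 3.67 and 3.45 CPM in alendronate hearts 1 to 5, against 4.39, 4.46, 4.51 and 6.93 CPM in placebo hearts 1 to 4. The arms did not overlap, and the log2 fold change was -0.65 with an SE of 0.21. Member 108 had 0.825, 0.879, 0.844, 0.787 and 0.545 CPM in alendronate hearts, against 0.913, 1.15, 1.64 and 2.94 CPM in placebo hearts. It too had arms that did not overlap, at levels near or below 1 CPM in most libraries, and a log2 fold change of -1.10 with an SE of 0.38. For this member every alendronate library was below every placebo library in spleen, kidney and heart. It was picked by its p in these tissues, and no share of all genes was computed for them together.

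In liver, 119 members passed the filter, and 19 did not. The fitted change was above 0 for 113 of the 119 and the median was 0.52, against 0.04 over all 15167 genes, of which 44.6% were below 0. At an unadjusted p below 0.05 there were 2 members (1.68%), against 4.37% of all genes. Both were higher, against 2.20% of all genes, and 0 were lower, against 2.18%. For 1 member (0.840%) every alendronate liver was above every placebo liver, against 0.864% of all genes, and for 0 members was every alendronate liver below, against 0.844%. The median depended on the 2 fish that stood apart, in opposite ways. Without alendronate fish 1 it was -0.02, with 59 of 112 members below 0. Without placebo fish 4 it was 1.21, and 43 of 122 members (35.2%) had an unadjusted p below 0.05, all higher, against 12.3% of all genes. Without both fish it was 0.60, and 27 of 112 members (24.1%) had an unadjusted p below 0.05, of which 26 were higher, against 10.5% of all genes. In place of 2 members there was 1 without any 1 of alendronate fish 1, alendronate fish 2, placebo fish 1 or placebo fish 3. The share of members in those fits was 0.787% to 0.893%, against 1.65% to 4.65% of all genes. There were 4 without alendronate fish 3 (3.57%, against 6.19% of all genes) and 4 without alendronate fish 4 (3.45% against 3.35%). Without alendronate fish 5 there were 3 (2.54% against 3.28%). With all 42 libraries in the fit there were 11 (7.97% against 8.14%), of which 1 was lower.

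Member 44, a spleen-leaning member, had the smallest p in liver. It had 3.55, 1.67, 1.97, 3.28 and 1.67 CPM in alendronate livers 1 to 5, against 0.890, 0.918, 1.30 and 1.58 CPM in placebo livers 1 to 4. The arms did not overlap, and the log2 fold change was 1.05 with an SE of 0.34. Member 112 had 2.98, 0.922, 0.422, 0.749 and 0.264 CPM in alendronate livers, against 0.375, 0.257, 0.293 and 0.498 CPM in placebo livers. It was high in alendronate fish 1 and its arms overlapped, with a log2 fold change of 1.59 and an SE of 0.69.

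In muscle, 123 members passed the filter, and 15 did not. The fitted change was below 0 for 99 of the 123, with a median of -0.39, against 50.6% of all 15610 genes and a median of -0.0038. At an unadjusted p below 0.05 there were 7 members (5.69%), against 7.41% of all genes. All 7 were lower, against 4.14% of all genes, and 0 were higher, against 3.27%. For 2 members (1.63%) every alendronate muscle was below every placebo muscle, against 1.14% of all genes. For 0 members was every alendronate muscle above, against 1.22%. Some members, such as 50 and 63, could pass the filter through the placebo muscles alone. Member 50 had 0.995 CPM in alendronate muscle 1 and 0.0351 to 0.141 CPM in alendronate muscles 2 to 5. Its placebo muscles had 0.634 to 1.63 CPM. These counts and their direction are therefore not independent of the filter. The count moved most when alendronate fish 1 was left out. Without it 66 of 121 members (54.5%) had an unadjusted p below 0.05, all lower, against 8.96% of all genes, and the median was -0.81. Without alendronate fish 1 and placebo fish 4 there were 55 of 122 (45.1%), all lower, against 9.04% of all genes, with a median of -0.66. Without placebo fish 2 there were 17 of 127 (13.4%, against 9.19% of all genes). Without any 1 of alendronate fish 2 to 5 there were 4 (3.25% to 3.33%, against 5.0% to 6.3%). limma-voom gave 13 (10.6% against 6.73%). No member passed the adjusted threshold in these fits.

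Member 63 had 0.515, 0.152, 0.210, 0.225 and 0.141 CPM in alendronate muscles 1 to 5, against 0.634, 0.966, 0.882 and 0.745 CPM in placebo muscles 1 to 4. All values were below 1 CPM and the arms did not overlap. The filter on low counts asks for enough counts in as many libraries as the smaller arm has. Member 63 could pass it through placebo muscles 1 to 4 alone, so its difference between arms is not independent of the filter. The log2 fold change was -1.68 with an SE of 0.46, and edgeR gave an unadjusted p of 0.00321 and an adjusted p of 0.664. Member 30 had 6.48, 4.88, 2.70, 4.43 and 3.36 CPM in alendronate muscles, against 7.56, 4.39, 8.40 and 12.3 CPM in placebo muscles. Its arms overlapped, and the log2 fold change was -0.90 with an SE of 0.30.

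The plot of fitted changes by tissue shows the members lying mostly to one side in spleen, heart, liver and muscle. Of the 111 members tested in every tissue, 80 (72.1%) were below 0 in spleen, heart and muscle and above 0 in liver, against 10.3% of the 13432 genes tested in every tissue. As shown above, the heart median turned to 0.48 without placebo fish 4, and the spleen median was 0.01 without that fish. Without alendronate fish 1 the liver median was -0.02. The choice of members used libraries of all 5 tissues, so these signs are not independent of it. The libraries of 1 fish enter all of these comparisons, so the tissues do not count as separate evidence. Differences of the alendronate effect between liver and the other tissues were not tested.

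The difference of the alendronate effect between spleen and kidney was tested directly as a treatment-by-tissue term. By edgeR 0 of 138 members passed an adjusted p of 0.05, against 0.00% of all 20091 genes, and the smallest adjusted p of a member was 1.0. The fitted difference, spleen minus kidney, was below 0 for 123 members, against 54.4% of all genes, with a median of -0.41 against -0.04. At an unadjusted p below 0.05 there were 3 members (2.17%), all below 0, against 1.51% of all genes, of which 1.10% were below 0. That fit did not pair spleen with kidney of the same fish. Fitted within fish, since both organs came from the same animals, 63 of the 138 members were below 0. The median was then 0.02, against -0.01 over all genes. In the unpaired fit the median was 0.03 without the spleen of placebo fish 4. In place of 3 members at an unadjusted p below 0.05 there was 1 (0.725%) without alendronate fish 4 or placebo fish 4. The shares of all genes were 1.36% and 1.85%. There were 2 (1.45%) without alendronate fish 3, against 1.22% of all genes, and 4 (2.90%) without alendronate fish 5, against 2.23%. Fitted within fish there were also 2 (1.45%), against 2.59% of all genes. Leaving out placebo fish 2 or 3 leaves 1 placebo kidney. The median was then -0.72 without placebo fish 2 and -0.40 without placebo fish 3. Placebo fish 4 has a spleen library and no kidney library here.

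Member 108 had a log2 difference of -1.72 with an SE of 0.65, with fitted changes of -2.48 in spleen and -0.77 in kidney. For member 103 the difference was -0.94 with an SE of 0.37, from -0.04 in spleen and 0.90 in kidney. For member 97 it was -1.43 with an SE of 0.57, from -1.64 in spleen and -0.23 in kidney. In these 3 members the spleen value was the lower one, and member 103 was the only one with a kidney value above 0. The differences and SEs of these members come from the unpaired fit.

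The median spread between fish of 1 arm was larger for the members than for all genes at the same minimum level. Over genes with a tissue mean of at least 5 CPM, the median SD of log2 CPM between fish was 0.66 for the 138 members in spleen, against 0.37 for all such genes. In kidney it was 0.64 for the members, against 0.31 for all such genes. Of the members, 44 reached that level in heart, with a median SD of 1.05 against 0.27, and 49 did so in liver, with 0.95 against 0.34. In muscle 46 did so, with 0.65 against 0.29.

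For most members, as for most genes, fish with higher values in spleen tended to have higher values in kidney. Over the 7 fish with both libraries, after the mean of the arm was removed, Pearson's r between spleen and kidney was above 0 for 118 of 138 members (85.5%), against 74.8% of 10035 genes with at least 5 CPM in both organs. Spearman's rho was above 0 for 108 members (78.3%), against 73.0% of those genes. The median r was 0.39 for the members and 0.41 for all those genes. The points share fish, library preparation and scaling, and the values are given as a description.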

How the data were processed

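The authors deposited raw read counts, 1 row for each Ensembl gene ID and 42 library columns, with 0 columns of no sample and 0 rows that name no gene. Tools listed in the submitters' processing notes, with no role or order, are STAR 2.7.10b, SAMtools 1.13, Trim Galore 0.6.10, MultiQC 1.28, FastQC 0.12.1, bcl2fastq and CASAVA. No source used here gives the counting program, strand setting, annotation or genome build. Counts of overlapping, antisense and near-identical genes are therefore uncertain. Members, lists and tests were chosen with earlier results of these data known.

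Each tissue was fitted alone with edgeR 4.0.16 (filterByExpr with a minimum count of 10, TMM, robust quasi-likelihood F test, two-sided) in R 4.3.3. P-values were adjusted by the Benjamini-Hochberg method over all genes of the tissue, and the code was tested on simulated data. DESeq2 1.42.0, limma 3.58.1 (voom), other scaling, no filter, a replicate block, other limits for members and leaving out libraries were alternatives. Log2 CPM used a prior count of 2. Described singly were members 1 to 5, the 3 highest and 3 lowest spleen to kidney ratios, the 5 smallest p in spleen and in kidney, the 2 smallest in each other tissue, the 3 smallest for the difference, and the genes beside the fold limit. With no gene names, 2 IDs above 0 and 2 below 0 in spleen were printed.

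Replicates differed beyond sampling noise (lowest chi-square 26.7 per gene over 72 pairs). P-values measure the spread between fish. Equal numbers in both arms were read as different fish, and no label pairs them (r of deviations -0.31 to 0.38). Spleen and kidney of 1 fish are the same animal (r 0.08 to 0.34 over 7 fish). These ranges overlap, so r cannot show whether fish are paired. Shares of counts have 95% Wilson intervals within 0.00652 percentage points, for counting error only. The marker lists could not be matched to any row.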

Additional observations from a re-analysis of the deposited data

Results flagged for a closer look

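In 10 of 32 groups of 4 or 5 libraries examined, 1 library lay far from the rest of its arm by Dixon's test. Chance flags about 1 group in 20, and the flagged libraries of 1 fish are not separate events. Of these, 5 were shares of counts taken by the members. In heart the share was 0.205% in alendronate fish 1, with the next alendronate heart at 0.0900%, and 0.336% in placebo fish 4, with the next placebo heart at 0.0710%. In liver it was 0.187% in alendronate fish 1, with the next alendronate liver at 0.0434%, and 0.0810% in placebo fish 4, with the next placebo liver at 0.0220%. In muscle it was 0.110% in alendronate fish 1, with the next alendronate muscle at 0.0356%.

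The other 5 were single members. Member 108 had 10.4 CPM in the spleen of alendronate fish 1, with the next alendronate spleen at 4.85 CPM. It also had its lowest heart value, 0.545 CPM, in alendronate fish 5, with the next at 0.787 CPM. Member 95 had 6.93 CPM in the heart of placebo fish 4, with the next placebo heart at 4.51 CPM. Member 112 had 2.98 CPM in the liver of alendronate fish 1, with the next alendronate liver at 0.922 CPM. Member 63 had 0.515 CPM in the muscle of alendronate fish 1, with the next alendronate muscle at 0.225 CPM.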

How the results depend on the processing

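Member counts at the adjusted threshold were 0 in every tissue and for the difference under each alternative, with the exception of 1 member in spleen by DESeq2. With each library left out in turn, counts stayed at 0 and the median log2 fold change spanned -0.54 to 0.01 for spleen, -0.31 to 0.14 for kidney, -0.74 to 0.48 for heart, -0.02 to 1.21 for liver and -0.81 to -0.26 for muscle. For the difference between spleen and kidney it ran from -0.72 to 0.03. A block on replicate number tied fish of equal number across arms, although no label pairs these fish. That fit called 0 members in each tissue. It gave a median of -0.47 for spleen, -0.05 for kidney, -0.05 for heart, 0.67 for liver and -0.47 for muscle. With fish as the replicate block the difference had a median of 0.02 and 0 members called. The 9 members of a 10-fold limit had medians of -1.08 for spleen, -0.74 for kidney, -0.46 for heart, -1.22 for muscle (4 tested) and 0.53 for liver (2 tested). Below 0 were 7 of the 9 in spleen, 8 in kidney and 7 in heart, against 47.0%, 43.7% and 50.2% of all genes. All 4 in muscle and 0 of 2 in liver were below 0, against 50.6% and 44.6%. The stricter limit used the same libraries, so these values are not independent of it. Some members could pass the muscle filter through the placebo muscles alone. Without alendronate fish 1 and 3, member 131 was at -0.67 and member 136 at -1.15 in spleen.

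The number of members was 456 with no TMM factors, 344 by a 3-fold limit, 9 by a 10-fold limit and 216 by a 1 CPM limit. Leaving out 1 spleen or kidney library at a time gave 117 to 161, the lowest without the spleen of placebo fish 4. Factors by relative log expression gave 146, of which 133 were shared with the 138. Of the counts at an unadjusted p, 37 moved by over 1.5 times and 54 did not. The fits without both alendronate fish 1 and placebo fish 4, and the difference without the spleens of alendronate fish 1 and 3 (median -0.76), were chosen after seeing the data. The cause of these changes was not tested. Precision was limited by the number of fish and, for members with few counts in heart, liver and muscle, by depth; these limits were not compared.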
